A study of Mus musculus with 12 samples.

Results

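The genes described here act at the surface of muscle precursor cells when these cells touch, adhere and merge into fibres. They are 10 genes, Mymk, Cdh15, Cdh2, Adam12, Cav3, Dysf, Myof, Ncam1, Vcam1 and Ptgir, chosen by name and found on the arrays through the RefSeq accession of each probe. These genes, and the wider lists below, were chosen with earlier results of these data known. All 10 were measured, by 20 probes, among 12300 named genes tested. They were followed in C3H/10T1/2, a mouse embryonic fibroblast line that turns towards skeletal muscle when it is given MyoD, a transcription factor able to set off the muscle programme. All cells carried a stable hairpin and a retroviral vector, and had been infected 24 h before a further 24 h in differentiation medium with 2% horse serum. The 4 groups of 3 arrays were shSix4 cells (a hairpin against Six4, a homeobox factor of muscle development) with pBABE-MyoD, which encodes Flag-MyoD-myc, shSix4 cells with empty pBABE, shLuc cells (the control hairpin) with pBABE-MyoD, and shLuc cells with empty pBABE. The labels do not say whether each hairpin line is a clone or a pool, and hairpin and line cannot be told apart. The labels do not say that replicates were separate cultures, and p-values therefore measure only the spread between these arrays, which may be technical.

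Myoblasts become muscle fibres by recognising each other, adhering and fusing their membranes. Cadherins and immunoglobulin family proteins hold the cells together, and myomaker, the product of Mymk, is the membrane protein that drives the merging of the bilayers and is made almost only in fusing muscle cells. Ferlins and caveolin 3 then serve the growing membrane of the fibre, in vesicle fusion, repair and the build-up of the transverse tubules.

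Promoter windows from RefSeq (GRCm38.p6) matched 5 of the 10 members, Cdh15, Cav3, Dysf, Myof and Ptgir, by symbol. The 250 bases before the annotated start are shown for Cdh15 and Cav3, which rose with MyoD in both lines, and for Ptgir, which passed the test in shSix4 cells. All 3 are on the plus strand, at chr8:122848124-122848373 for Cdh15, chr6:112459255-112459504 for Cav3 and chr7:16906240-16906489 for Ptgir. Capitals mark E-boxes, the letters CANNTG, a motif that reads the same on both strands. Dimers of MyoD bind E-boxes and prefer forms such as CAGCTG.
Cdh15: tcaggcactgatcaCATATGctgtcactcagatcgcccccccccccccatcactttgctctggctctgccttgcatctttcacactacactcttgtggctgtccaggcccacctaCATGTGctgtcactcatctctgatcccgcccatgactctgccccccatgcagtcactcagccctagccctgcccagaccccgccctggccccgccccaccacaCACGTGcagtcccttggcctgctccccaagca
Cav3: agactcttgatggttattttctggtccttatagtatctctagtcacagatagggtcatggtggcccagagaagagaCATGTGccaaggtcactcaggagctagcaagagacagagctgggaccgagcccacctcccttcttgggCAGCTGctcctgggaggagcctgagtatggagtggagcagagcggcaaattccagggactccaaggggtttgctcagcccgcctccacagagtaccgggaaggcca
Ptgir: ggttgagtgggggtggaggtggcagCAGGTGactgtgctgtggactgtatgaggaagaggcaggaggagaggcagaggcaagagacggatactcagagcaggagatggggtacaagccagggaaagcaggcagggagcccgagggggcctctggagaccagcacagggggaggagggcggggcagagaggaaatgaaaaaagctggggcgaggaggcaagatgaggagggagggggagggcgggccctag
Cdh15 held 3 E-boxes, with first bases 236, 135 and 32 bases before the start, and none of them has the letters CAGCTG. Cav3 held 2, at 174 and 106 bases, and the second of them has the letters CAGCTG. Ptgir held 1, at 225 bases. The windows of Dysf and Myof held none. Among all 32851 windows of this length 66.2% held at least 1 E-box and 13% held CAGCTG, so a match is common and is only a description. TCAGGTT, the core of the MEF3 motif bound by the family of Six4, was searched on both strands and was in none of these windows, against 3.49% of all windows. None of these searches bears on whether a factor was bound.

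Of 41174 probes, 22318 to 27448 per array read well above background, and levels are given as log2 of the processed signal relative to the array's 75th percentile. The replicate number is the slide, and each of the 3 slides held 1 array of every group. All 6 skeletal muscle markers, Myog, Myh3, Actc1, Chrna1, Ckm and Des, were well above background on every array with MyoD, and 1 of 6, Actc1, was on every array with the empty vector of either line. The fibroblast list had 5 or 6 of 6 markers above background in each group, while Pecam1, Cdh5 and Kdr of the endothelial list and Ptprc of the leukocyte list were above background on no array. The endothelial marker Tek was above background on 2 of 3 arrays of shSix4 cells with MyoD and on all 3 of every other group. Of the adipocyte list 1 of 3 markers was above background in each group, and of the neural list 1 of 3 in shSix4 cells with MyoD and 0 in the others. The smooth muscle list had 3 of 4 and the leukocyte list 2 of 3 in each group, without Ptprc. The log2 of the summed muscle marker signal was 6.93 to 7.77 with MyoD and 3.07 to 5.49 without it in the shSix4 line, and 8.43 to 8.81 with MyoD and 4.14 to 5.17 without it in the shLuc line. Six4 itself was -1.17 ± 0.49 (SE) in shSix4 against shLuc cells with MyoD (limma, adjusted p = 0.558, and 0.0424 with the slide as a block) and -0.92 ± 0.49 with empty vector (adjusted p = 0.999). Its own loss was thus not past the threshold without the block, and every statement on shSix4 cells is one on the line labelled so.

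MyoD raised 5 members in each line. In shLuc cells 5 of 10 members were higher with MyoD than with the empty vector, against 4.72% of all genes, and none was lower, against 1.56%. In shSix4 cells there were also 5 of 10 higher, against 2.79%, and none was lower, against 0.106%. Because the members were chosen with earlier results of these data known, these shares are a description and no test. Mymk, Cdh15, Cav3 and Ncam1 rose in both lines. Normexp background correction left 2 members called higher in each line, Mymk and Cdh15. Over all 12300 genes it took the calls in either direction from 772 to 86 in shLuc cells and from 356 to 49 in shSix4 cells. A filter over all 12 arrays left 3 in shLuc cells, where Cav3 and Adam12 dropped out untested. Of 10941 genes, 457 were called there in either direction. Cav3 also went untested in shSix4 cells, and no member kept by that filter changed its call. Leaving out 1 array, shSix4 replicates 1 or 2 with empty vector or 1 or 3 with MyoD, left 3 members called higher in shSix4 cells. Adam12 was the fifth in shLuc cells and Ptgir the fifth in shSix4 cells, and neither difference between the lines passed its own test. With the mean of a gene's probes in place of the brightest, Adam12 was called in shSix4 cells and Ptgir was not. The median log2 change of the 10 members was 1.30 in shSix4 cells and 0.80 in shLuc cells, beside -0.06 and -0.14 over all genes. Dysf, Cdh2, Myof and Vcam1 passed in neither line, with changes between -0.75 and 0.48. The groups did not overlap for 5 members on the higher side in shLuc cells, where 10.2% of genes do this, and for 3 on the lower side, Cdh2, Myof and Vcam1, where 15.9% do. In shSix4 cells 6 members were higher without overlap (7.15% of genes) and 1, Myof, was lower (7.38%). With the slide as a block, 5 members were higher (9.89% of genes) and 2 lower (15.7%) in shLuc cells, and 6 higher (5.7%) and none lower (2.6%) in shSix4 cells.

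**Figure D1:**
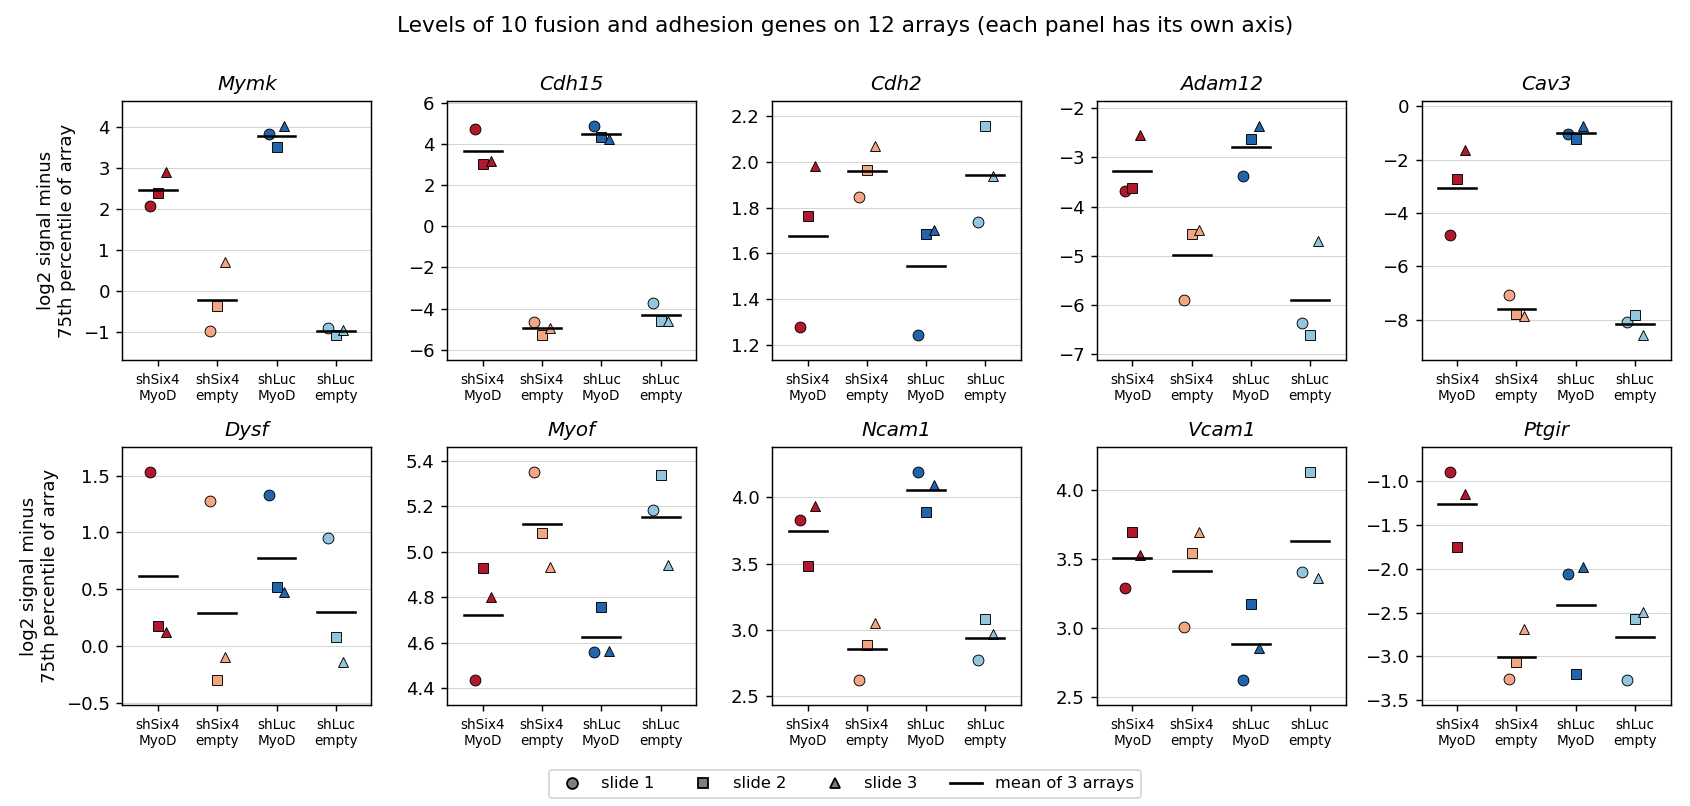
Level of each of the 10 genes on each of the 12 arrays, as log2 signal relative to the array's 75th percentile, by group, with the marker shape giving the slide and the line the mean of 3 arrays. Each panel has its own axis. Mymk, Cdh15, Cav3 and Ncam1 lie clearly higher with MyoD in both lines, while Dysf is highest on slide 1 in every group.

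**Figure D2:**
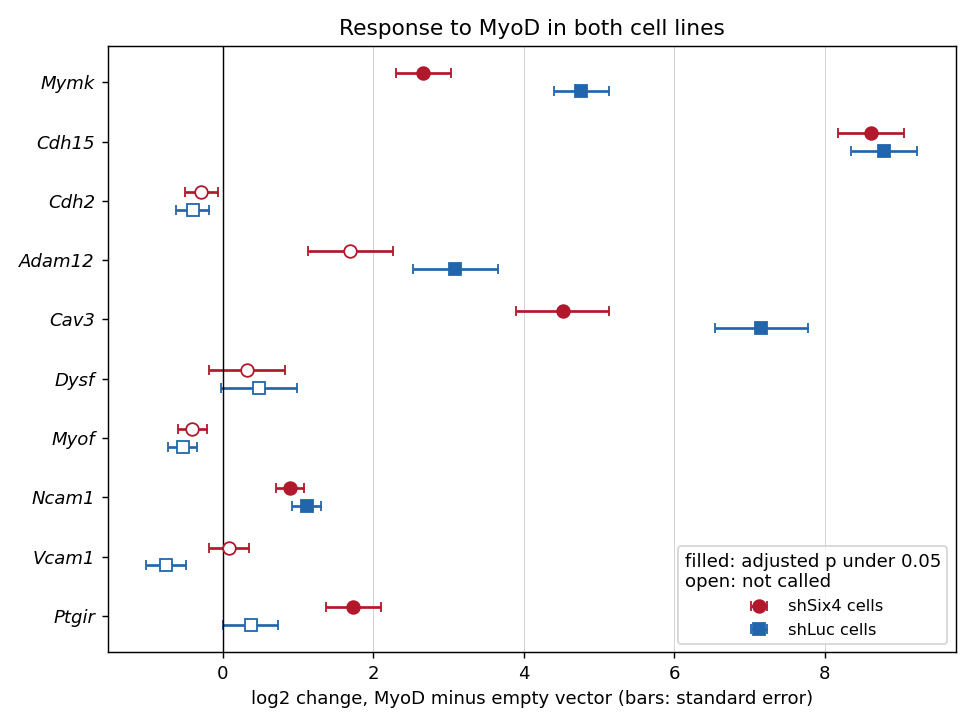
Log2 change from empty vector to MyoD for each gene in shSix4 cells (circles) and shLuc cells (squares), with limma standard errors and 3 arrays per group. Filled symbols have an adjusted p under 0.05. Cdh15 has nearly the same change in both lines, 8.62 and 8.79, while Mymk has 2.67 in shSix4 and 4.77 in shLuc cells.

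The fusion protein Mymk was raised by MyoD in both lines. In shSix4 cells it read 2.07, 2.39 and 2.90 with MyoD and -0.97, -0.38 and 0.71 with the empty vector. With shLuc the levels were 3.83, 3.52 and 4.02 in MyoD cells and -0.91, -1.07 and -0.96 in empty-vector cells. The highest levels were those of shLuc cells with MyoD, followed by shSix4 cells with MyoD without overlap, and then by the empty-vector groups, which overlapped each other. Its probe read well above background on all 12 arrays, those with the empty vector included. Mymk rose by 2.67 ± 0.37 (SE, log2, limma adjusted p = 0.00148) in shSix4 cells, a 6.36-fold rise. In shLuc cells it rose by 4.77 ± 0.37 (adjusted p = 9.14e-06), which is 27.3-fold. Among cells with MyoD, Mymk was 2.52-fold lower in the shSix4 line, and lower on every slide, by log2 differences of -1.75, -1.13 and -1.12. This difference of -1.33 ± 0.37 did not pass without the block (adjusted p = 0.21) and passed with it (0.0302). Among cells with empty vector Mymk read +0.77 ± 0.37 in the shSix4 line (adjusted p = 0.999). The MyoD response was smaller in shSix4 than in shLuc cells by 2.10 ± 0.52, or 4.29-fold, with an unadjusted p of 0.00208 and an adjusted p of 0.88 (0.194 with the block). Within slides it was smaller by 1.69, 1.82 and 2.78.

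Cdh15 and Cdh2 encode M-cadherin and N-cadherin, the calcium-dependent adhesion proteins of myoblasts, M-cadherin being the one largely restricted to muscle cells. Cdh15 rose strongly with MyoD and Cdh2 did not pass in either line. In shSix4 cells Cdh15 read 4.76, 3.02 and 3.18 with MyoD and -4.64, -5.28 and -4.97 with the empty vector. The control hairpin line gave 4.88, 4.33 and 4.25 with MyoD and -3.71, -4.60 and -4.61 with the empty vector. Every array with MyoD thus stood far above every array without it. Cdh15 rose by 8.62 ± 0.44 (adjusted p = 5.15e-07) in shSix4 cells and by 8.79 ± 0.44 (adjusted p = 2.59e-07) in shLuc cells. The difference of these responses was -0.17 ± 0.62 (adjusted p = 1.00), with a 95% interval of -1.53 to 1.19. Set between the lines, Cdh15 differed by -0.83 ± 0.44 in cells with MyoD (adjusted p = 0.78). Without MyoD the difference was -0.66 ± 0.44 (adjusted p = 0.999), and both were negative on all 3 slides.

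Cdh2 stayed within a narrow range. On the shSix4 arrays Cdh2 read 1.28, 1.76 and 1.98 with MyoD and 1.84, 1.96 and 2.07 with the empty vector. The shLuc arrays read 1.24, 1.69 and 1.70 with MyoD and 1.74, 2.16 and 1.94 with the empty vector. All arrays with MyoD in shLuc cells were just below all arrays without it, and the groups overlapped in shSix4 cells. The changes were -0.29 ± 0.22 in shSix4 cells (adjusted p = 0.861) and -0.40 ± 0.22 in shLuc cells (adjusted p = 0.373). On each slide Cdh2 was lower with MyoD in both lines, by log2 differences between -0.56 and -0.09.

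Adam12 encodes a membrane-anchored metalloprotease and disintegrin of fusing myoblasts. In shSix4 cells it read -3.67, -3.63 and -2.54 with MyoD and -5.91, -4.55 and -4.48 with the empty vector. With shLuc the levels were -3.39, -2.63 and -2.37 in MyoD cells and -6.36, -6.61 and -4.70 in empty-vector cells. The groups did not overlap in either line, and the empty-vector signals were dim, well above background on 2 of 3 arrays in shSix4 cells and on 1 of 3 in shLuc cells. Adam12 rose by 3.09 ± 0.56 in shLuc cells (adjusted p = 0.00601), which is 8.54-fold. Normexp correction ended this call, and over the alternative settings the change was as low as 0.57. In shSix4 cells the change was +1.70 ± 0.56, which did not pass without the block (adjusted p = 0.219) and passed with it (0.011). It also passed with the mean of the gene's probes. The second probe, A_52_P290457, was well above background on 0 of 3 empty-vector arrays in shSix4 cells and 1 of 3 in shLuc cells. It read at least 2.31-fold higher with MyoD in shSix4 cells, a bound that was not tested itself. Its fitted change there, 2.20 ± 0.50, did not pass (limma, adjusted p = 0.053 among 24000 probes). The difference of the responses was -1.39 ± 0.79 (adjusted p = 1.00). With MyoD the shSix4 line was lower on every slide, by -0.29, -0.997 and -0.18, which did not pass (adjusted p = 0.999). With empty vector the differences were 0.46, 2.05 and 0.21 (adjusted p = 0.999), from signals near background, and normexp correction gave -0.63.

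Cav3, Dysf and Myof serve the muscle membrane. Caveolin 3, the muscle-specific coat protein of caveolae, was the member that differed most between the lines with MyoD. In shSix4 cells Cav3 read -4.80, -2.71 and -1.65 with MyoD and -7.07, -7.80 and -7.87 with the empty vector. The control hairpin line gave -1.03, -1.21 and -0.74 with MyoD and -8.09, -7.81 and -8.56 with the empty vector. Every array with MyoD read it well above background and no array with the empty vector did, so its rise is a bound. Taken from the lowest signal well above background on each array, Cav3 was at least 5.02-fold higher with MyoD in shSix4 cells. In shLuc cells it was at least 31.2-fold higher. These bounds hold for the main processing and were not tested themselves. The fitted changes were 4.52 in shSix4 cells (limma, adjusted p = 0.00135) and 7.16 in shLuc cells (adjusted p = 2.14e-05). Normexp correction ended both calls, and over the alternative settings the change was as low as 1.14 in shSix4 and 2.01 in shLuc cells. The measured means were -3.06 ± 1.6 (SD, n = 3) and -7.58 ± 0.44 in shSix4 cells, and -0.99 ± 0.23 and -8.15 ± 0.38 in shLuc cells. The spread among shSix4 arrays with MyoD was wide, with slide 1 more than 2 log2 units below the others. Without that array the fitted change in shSix4 cells was 5.40 in place of 4.52.

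With MyoD, Cav3 was lower in the shSix4 than in the shLuc line on all 3 slides, by -3.77, -1.51 and -0.91, and the groups did not overlap. The difference of -2.06 ± 0.62, or 4.18-fold, did not pass (adjusted p = 0.252, and 0.0992 with the block). The smaller response in shSix4 cells, -2.64 ± 0.87, had an unadjusted p of 0.0119 and an adjusted p of 1.00. Its value rests in part on empty-vector signals that were not well above background in either line.

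Dysferlin, the product of Dysf, is a vesicle protein of membrane repair whose loss causes muscular dystrophy. On the shSix4 arrays Dysf read 1.54, 0.18 and 0.13 with MyoD and 1.28, -0.30 and -0.10 with the empty vector. The shLuc arrays read 1.33, 0.52 and 0.48 with MyoD and 0.95, 0.08 and -0.14 with the empty vector. Slide 1 held the highest value in all 4 groups, and the groups overlapped in every comparison. With MyoD the change was +0.32 ± 0.51 in shSix4 cells (adjusted p = 0.994) and +0.48 ± 0.51 in shLuc cells (adjusted p = 0.681). Within slides it was positive in each line on all 3 slides, between 0.23 and 0.62, and it did not pass with the block either (adjusted p = 0.266 and 0.0568).

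Myoferlin, the product of Myof, is the related protein of membrane fusion in myoblasts. On the shSix4 arrays Myof read 4.43, 4.93 and 4.80 with MyoD and 5.35, 5.08 and 4.93 with the empty vector. With shLuc the levels were 4.56, 4.75 and 4.56 in MyoD cells and 5.18, 5.34 and 4.94 in empty-vector cells. It was lower with MyoD on all 3 slides of both lines, and the groups did not overlap, although the closest shSix4 arrays both round to 4.93. The change was -0.40 ± 0.19 in shSix4 cells (adjusted p = 0.567, and 0.164 with the block). In shLuc cells it was -0.53 ± 0.19, which passed only with the block (adjusted p = 0.158, and 0.0385 with the block). Of the other probes of Myof, A_51_P478353 gave -0.13 ± 0.22 in shSix4 cells and -0.60 ± 0.24 in shLuc cells, and A_52_P360440 gave -0.72 ± 0.44 in shSix4 cells and -0.66 ± 0.44 in shLuc cells.

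Ncam1 and Vcam1 are adhesion proteins of the immunoglobulin family, and Vcam1 binds the integrin of which Itga4 is a chain. On the shSix4 arrays Ncam1 read 3.83, 3.48 and 3.93 with MyoD and 2.62, 2.89 and 3.06 with the empty vector. The control hairpin line gave 4.19, 3.89 and 4.09 with MyoD and 2.77, 3.08 and 2.97 with the empty vector. No array with MyoD overlapped one without it. Ncam1 rose by 0.90 ± 0.19 in shSix4 cells (adjusted p = 0.0274) and by 1.12 ± 0.19 in shLuc cells (adjusted p = 0.00414), a 1.86-fold and a 2.17-fold rise. In shSix4 cells the call was lost without shLuc replicate 3 with MyoD, shSix4 replicates 1 and 2 with empty vector, or shSix4 replicates 1 and 3 with MyoD, at changes between 0.78 and 0.91. The fit without the filter on dim probes also ended the call there, and normexp correction ended it in both lines.

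The 6 probes of Ncam1 did not read alike. The gene's value above comes from the brightest, A_51_P380309. Probe A_52_P382754 changed most, by 1.82 ± 0.41 in shSix4 cells and 3.06 ± 0.41 in shLuc cells. A_52_P684037 gave 1.42 and 2.28, A_52_P291924, printed as 10 spots, 1.35 and 2.21, and A_52_P613255 0.56 and 0.97. A_51_P347103 gave 0.13 ± 0.29 in shSix4 cells and -0.08 ± 0.29 in shLuc cells. Ncam1 is transcribed into several isoforms, and which of them each probe reads was not analysed here. For A_52_P382754 the shSix4 line was lower with MyoD by 0.89 ± 0.41, which passed among the 24000 probes only with the block (adjusted p = 0.769, and 0.0215 with the block).

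**Figure D3:**
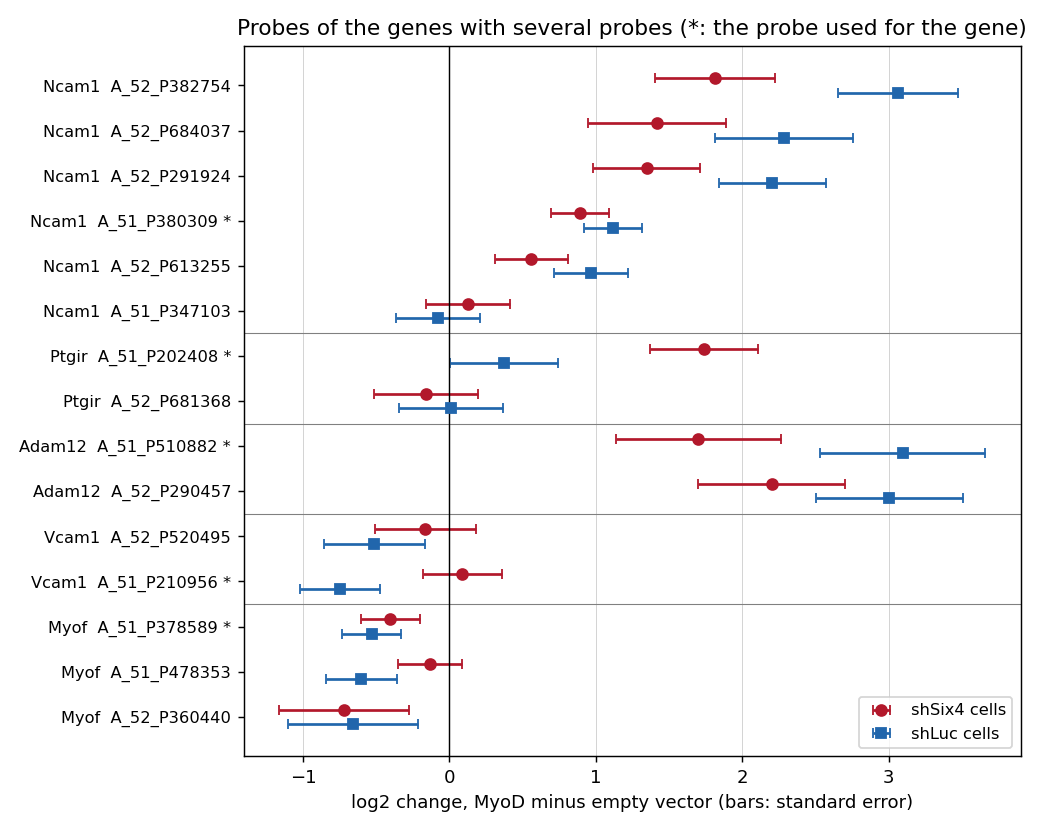
Log2 change from empty vector to MyoD for each probe of the 5 genes with several probes, in shSix4 cells (circles) and shLuc cells (squares), with limma standard errors from a fit over 24000 probes. The star marks the probe that stands for the gene. In shLuc cells the probes of Ncam1 spread from -0.08 to 3.06, and the second probe of Ptgir stays near 0 in both lines. For the second probe of Adam12 in shSix4 cells the empty-vector signal was not well above background, so the point is no exact change.

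On the shSix4 arrays Vcam1 read 3.29, 3.69 and 3.53 with MyoD and 3.01, 3.54 and 3.70 with the empty vector. The shLuc arrays read 2.62, 3.17 and 2.86 with MyoD and 3.40, 4.13 and 3.36 with the empty vector. Its groups overlapped in shSix4 cells, while in shLuc cells all arrays with MyoD were below all arrays without it. The change was +0.09 ± 0.27 in shSix4 cells (adjusted p = 0.998). In shLuc cells it was -0.75 ± 0.27, which passed with the block alone (adjusted p = 0.144, and 0.0114 with the block). The second probe gave -0.16 ± 0.35 in shSix4 cells and -0.51 ± 0.35 in shLuc cells. With MyoD, Vcam1 was higher in the shSix4 line on each slide, by 0.67, 0.52 and 0.67, a mean of 0.62 ± 0.27 that did not pass (adjusted p = 0.594, and 0.0697 with the block). The difference of the responses was +0.84 ± 0.38, with an unadjusted p of 0.0484 and an adjusted p of 1.00.

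Ptgir encodes the receptor for prostacyclin, a prostaglandin that myoblasts release. In shSix4 cells Ptgir read -0.89, -1.75 and -1.14 with MyoD and -3.25, -3.07 and -2.68 with the empty vector. With shLuc the levels were -2.06, -3.20 and -1.98 in MyoD cells and -3.27, -2.57 and -2.50 in empty-vector cells. The groups did not overlap in shSix4 cells and overlapped in shLuc cells, where slide 2 went down with MyoD. Ptgir rose by 1.74 ± 0.36 in shSix4 cells (adjusted p = 0.0244), a 3.34-fold rise, while in shLuc cells the change was +0.37 ± 0.36 (adjusted p = 0.648). This call was lost without shSix4 replicates 1 and 2 with empty vector or shSix4 replicates 1 and 3 with MyoD, at changes between 1.55 and 1.71. Leaving out any of these 4 arrays took the number of members called higher in shSix4 cells to 3. With MyoD the shSix4 line was higher on each slide, by 1.17, 1.45 and 0.83, without overlap, at a mean of 1.15 ± 0.36 (adjusted p = 0.3, and 0.0714 with the block). The difference of the responses, +1.37 ± 0.51, had an unadjusted p of 0.0223 and an adjusted p of 1.00. All of this holds for probe A_51_P202408. The other probe, A_52_P681368, gave -0.16 ± 0.35 in shSix4 cells and 0.01 ± 0.35 in shLuc cells. With the mean of these probes the call in shSix4 cells was lost, at a change of 0.79, and normexp correction also ended it.

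Between the lines no member passed the test. With MyoD, 0 of 10 were higher in shSix4 than in shLuc cells, against 0.065% of all genes, and 0 were lower, against 0.163%. At an unadjusted p under 0.05 there were 4, Mymk and Cav3 on the lower side and Ptgir and Vcam1 on the higher side, and the same 4 were the members whose groups did not overlap, 2 lower (6.05% of genes) and 2 higher (5.98%). Over all genes 7.8% had an unadjusted p under 0.05 here. With the block 1 member, Mymk, was lower, against 2.59%, and none was higher, against 1.75%. With the empty vector 0 were higher (0.00813% of genes) and 0 lower (0.0488%), 0 had an unadjusted p under 0.05 (4.45% of genes), and none was called with the block (0.146% and 0.496%). Cdh15 alone was lower without overlap (5.03% of genes), and none was higher (3.3%). The difference of the MyoD response passed for 0 members and for 0% of all genes, with and without the block, and 4 members had an unadjusted p under 0.05, against 2.02% of all genes. For the other members the 95% intervals of the difference with MyoD were -1.79 to 0.13 for Cdh15, -0.36 to 0.62 for Cdh2, -1.72 to 0.75 for Adam12, -1.28 to 0.95 for Dysf, -0.33 to 0.52 for Myof and -0.73 to 0.11 for Ncam1. These comparisons share their arrays with those of MyoD against empty vector, so they are not separate evidence.

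Muscle marker and Myod1 levels were also read between the lines. The summed muscle marker signal of shSix4 cells with MyoD lay wholly below that of shLuc cells with MyoD, and each of the 6 markers averaged lower, for example Myog at 6.78 against 7.93. Myod1 read -2.17, -0.86 and -0.23 in shSix4 cells with MyoD and 0.071, -0.23 and 1.23 in shLuc cells with MyoD, a difference of -1.45 ± 0.81 (adjusted p = 0.837). Against the empty vector Myod1 changed by +2.10 ± 0.90 in shSix4 cells (adjusted p = 0.482) and rose by 4.03 ± 0.90 in shLuc cells (adjusted p = 0.0315). On 1 array of each empty-vector group the Myod1 spots were marked as outliers and dropped. Whether its probe reads the retroviral transcript was not analysed here. The part of either in the lower Mymk and Cav3 was not tested. Fewer cells of a type and less RNA per cell cannot be told apart in these bulk samples.

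**Figure D4:**
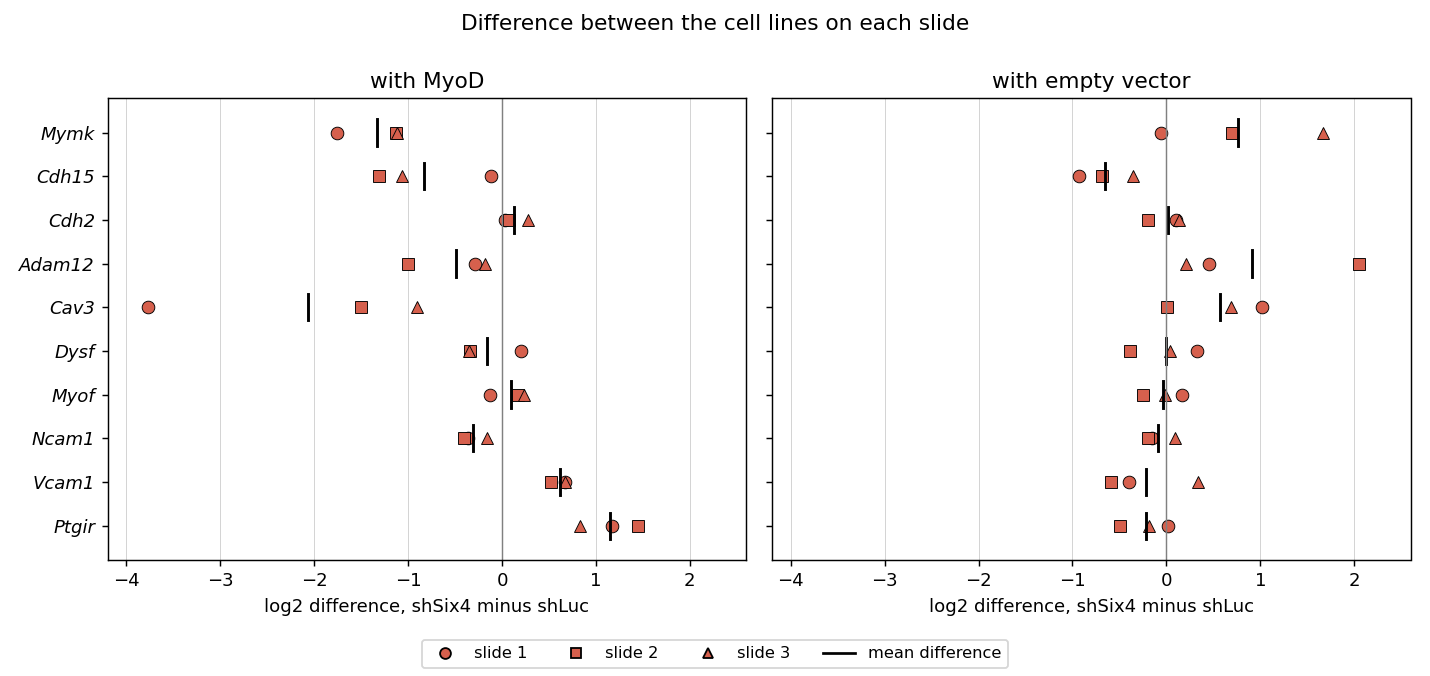
Log2 difference between the shSix4 and the shLuc array on the same slide for each gene, with MyoD (left panel) and with empty vector (right panel), where the line marks the mean of the 3 slides. With MyoD, Mymk, Cdh15, Adam12, Cav3 and Ncam1 are below 0 and Cdh2, Vcam1 and Ptgir above 0 on every slide. With empty vector only Cdh15, below 0, and Adam12 and Cav3, above 0, keep a constant sign.

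Most genes of the wider pathways did not pass the test. Of 116 other genes in 7 lists, 85 were tested. Mymx, the partner of myomaker, was not analysed here. In shSix4 cells 5 were higher with MyoD, against 2.79% of all genes, and none was lower, against 0.106%. In shLuc cells 8 were higher, against 4.72%, and 4 lower, against 1.56%. At an unadjusted p under 0.05 there were 17 in shSix4 cells (9.77% of all genes) and 31 in shLuc cells (19.3%). Their median change was -0.15 in shSix4 cells and -0.25 in shLuc cells. With the block the counts were 10 higher (5.7% of all genes) and 4 lower (2.6%) in shSix4 cells, and 12 higher (9.89%) and 21 lower (15.7%) in shLuc cells. Between the lines, without the block, 1 was higher with MyoD (0.065% of all genes) and 1 with empty vector (0.00813%).

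Among fusion proteins and cell surface regulators, 15 of 19 tested, Jam2, a junctional adhesion molecule, rose by 1.30 ± 0.31 in shLuc cells (adjusted p = 0.0298). Its call was lost without shLuc replicates 2 and 3 with empty vector or shLuc replicates 1 and 3 with MyoD. Kirrel3, a relative of the adhesion protein Kirre of fly myoblast fusion, was dim, with mean levels between -5.45 and -3.30. It fell by 0.73 ± 0.19 with MyoD in shLuc cells (adjusted p = 0.0499), a call kept under 5 of 19 alternatives and in 3 of 12 fits with an array left out. It was higher in the shSix4 line on every slide, by 1.52 ± 0.19 in cells with MyoD (adjusted p = 0.0195) and by 1.42 ± 0.19 in cells without it (adjusted p = 0.0313). The first call was lost without any shLuc array with MyoD or shSix4 replicates 1 and 2 with MyoD, at changes of 1.38 to 1.58, and the second without any array but shSix4 replicate 1 with MyoD, at 1.31 to 1.58. With normexp background correction these differences were -0.33 and -0.11. In shSix4 cells none of the 15 passed for MyoD (limma, 3 at an unadjusted p under 0.05). With the block Jam2 was higher there, at +0.90 ± 0.31 (adjusted p = 0.00228), and Kirrel3 lower, at -0.63 ± 0.19 (adjusted p = 0.0278).

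Of the actin remodelling genes, 19 of 20 tested, 1 rose in shLuc cells, Elmo1, part of a Rac exchange complex, by 2.18 ± 0.41 (adjusted p = 0.00812). None passed in shSix4 cells (1 at an unadjusted p under 0.05), where Elmo1 read +1.38 ± 0.41 and passed with the block (adjusted p = 0.0348). In the list of ferlins, caveolae and membrane repair, 17 of 22 tested, Cavin4, the muscle cavin, rose by 3.22 ± 0.44 in shSix4 cells (adjusted p = 0.00131) and by 2.90 ± 0.44 in shLuc cells (adjusted p = 0.00173). Cav1 and Cav2, the caveolins made in many tissues, fell in shLuc cells, Cav2 by 0.97 ± 0.16 (adjusted p = 0.00262) and Cav1 by 0.70 ± 0.18 (adjusted p = 0.0387). Leaving out single arrays ended the call of Cav1 in 9 of 12 cases and none of the calls of Cav2. With the block 8 of the 17 were lower (15.7% of all genes) and 2 higher (9.89%) in shLuc cells. In shSix4 cells 1 was lower (2.6%) and 2 higher (5.7%).

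Of cadherins and catenins, 8 of 16 tested, none passed in either line (0 at an unadjusted p under 0.05 in shSix4 cells and 2 in shLuc cells), while Cdh15 rose in both. With the block 2 were lower in shSix4 cells (2.6% of all genes) and 3 in shLuc cells (15.7%). In the immunoglobulin family list, 9 of 15 tested, Pvr, the poliovirus receptor, rose by 1.47 ± 0.20 in both lines (adjusted p = 0.00131 in shSix4 and 0.000808 in shLuc cells). Nrcam, a neuronal adhesion molecule, rose by 2.13 ± 0.46 in shSix4 cells (adjusted p = 0.0282) and by 2.599 ± 0.46 in shLuc cells (adjusted p = 0.00494). Of 12 fits with an array left out, 6 kept the call in shSix4 cells and 12 that in shLuc cells.

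Of the ADAM proteases, 7 of 9 tested, Adam8 rose by 3.14 ± 0.34 in shSix4 cells (adjusted p = 0.000245) and by 3.38 ± 0.34 in shLuc cells (adjusted p = 8.67e-05). Around Ptgir, 10 of 15 genes of prostaglandin synthesis and reception were tested. Ptgds, a prostaglandin D synthase, rose by 3.35 ± 0.39 in shSix4 cells (adjusted p = 0.000368) and by 3.31 ± 0.39 in shLuc cells (adjusted p = 0.000259), and Ptgis, which makes prostacyclin, by 1.39 ± 0.25 in shLuc cells (adjusted p = 0.00589). Ptgs1, the constitutive cyclooxygenase, fell by 0.83 ± 0.20 in shLuc cells (adjusted p = 0.0329), a call kept in 6 of 12 fits with an array left out.

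The members varied together in part. Over the 12 arrays, which share 4 groups and 3 slides, Mymk correlated with Cav3 at r = 0.96, with Ncam1 at 0.95 and with Cdh15 at 0.93. After group means were taken out, Mymk and Cdh15 correlated at -0.31 and Dysf and Cdh15 at 0.89. The slide was not taken out, and Dysf and Cdh15 both read highest on slide 1 in every group. The genes most like each member over the 12 arrays were named by the same measure. For Mymk these were the formin Fhod3 (r = 0.98) and Plpp7 (0.98). For Cdh15 they were Mycl (0.999) and the fast myosin light chain Mylpf (0.995), and for Cav3 the myosin heavy chain Myh2 (0.992) and the connexin Gjd4 (0.988). Ncam1 was most like Popdc2 (0.987) and Dync1i1 (0.982), and Adam12 most like Utp25 (0.982) and Ankrd10 (0.965). The members that MyoD did not raise in shLuc cells had other neighbours. Dysf was most like Nme1 (0.993) and the glycolytic enzyme Pgk1 (0.99), Cdh2 like the homeobox gene Dlx5 (0.979) and Rnf24 (0.954), Vcam1 like Evc2 (0.925) and Cnrip1 (0.923), and Myof like Sema3f (0.949) and Dhx57 (0.947). Ptgir was most like the chemokine Ccl17 (0.925) and the cytokine Il33 (0.899).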

How the data were processed

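Arrays of 1 colour (Cy3) were read from 12 scanner files. Per the file headers, the deposited values are spot intensities on a linear scale from Agilent Feature Extraction 11.5.1.1 (10.5.1.1 per the submitters' processing notes), background-subtracted and detrended within the array. The authors also deposited a table of log2 values, which served only as an alternative and whose copy here holds 2 of the 10 members. Groups were taken from the sample titles. The description field, which names another cell line, disagrees with the other fields and was set aside.

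Control spots and outlier-marked spots were left out. Processed signals were put on the log2 scale and lowered by the array's own 75th percentile, and spots of a probe were averaged. Probes that 1 or more groups had well above background in all 3 replicates were kept (24000 of 41174), and a gene took its brightest kept probe. Names came from RefSeq accessions and a table of assembly GRCm38.p6, used for names only. Tests were made with limma 3.58.1 in R 4.3.3 over 12 arrays and 12300 genes (8 residual and 2.85 prior degrees of freedom), with Benjamini-Hochberg adjustment over all genes of each of the 5 comparisons and a threshold of 0.05. The fit was tested on simulated data with independent noise and with changes only in shLuc cells with MyoD. That simulation held no slide effect, so it cannot show how the fit treats deviations shared within a slide. Over all genes the median change with MyoD was -0.06 in shSix4 and -0.14 in shLuc cells. A change from a group not above background is a bound, the dim group being set, per array, at the higher of its own signal and the lowest signal well above background. The number of arrays limits the precision.

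Deviations from group means correlated on the same slide in all 18 pairs of arrays from different groups (r 0.28 to 0.82). Pairs from different slides and groups ranged from -0.73 to 0.50, so the ranges overlapped in part. The replicate numbers, which are the slides, were taken to pair the samples. Fits with the slide as a block were run beside the others. Further alternatives were normexp correction, quantile normalization, no filter, a filter over all 12 arrays, outlier spots kept, the mean of a gene's probes, each array left out in turn and the authors' table. The members and the 7 pathway lists were chosen with earlier results of these data known. All members are reported. From each list up to 3 called genes with the largest change are named per comparison, and for each member the 2 most correlated genes. The files hold no mean signal column, so normexp used the median signal with an offset of 50. Figures were drawn with matplotlib.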

Additional observations from a re-analysis of the deposited data

How the results depend on the processing

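With the slide as a replicate block, Vcam1 and Myof were lower with MyoD in shLuc cells (2 members lower), Adam12 joined the higher members in shSix4 cells, and Mymk was lower in the shSix4 than in the shLuc line with MyoD (1 member). The block also called 10 of 85 pathway genes higher (5.7% of all genes) and 4 lower (2.6%) with MyoD in shSix4 cells. In shLuc cells 21 were lower (15.7%). Between the lines the block gave 9 higher (1.75%) and 1 lower (2.59%) with MyoD and 3 higher (0.146%) with empty vector. It changed no other member's call. Normexp correction left 2 members higher with MyoD in each line, and 2 pathway genes higher in each line, 0 lower in shLuc cells and 0 higher between the lines with either vector. Calls fell among all 12300 genes too, to 86 in shLuc and 49 in shSix4 cells, and to 0 between the lines with either vector. Keeping only probes above background on all 12 arrays left Cav3, Adam12 and the pathway genes Elmo1, Nrcam and Ptgds untested. With these gone, 3 members and 5 pathway genes were higher in shLuc cells and 3 pathway genes in shSix4 cells. There Cav3 was no longer among the higher members, and no member still tested changed its call. Without the filter 1 pathway gene was lower in shLuc cells and 0 were higher between the lines with either vector. In shSix4 cells Ncam1 lost its call without the filter. There the mean of all probes ended the call of Ptgir and added that of Adam12. Between the lines with MyoD, 3 pathway genes were higher after quantile normalization and 3 with the mean of all probes, and with empty vector 0 were higher after quantile normalization. With single arrays left out, the members higher in shSix4 cells numbered 3 to 5, the pathway genes lower in shLuc cells 1 to 5, and those higher between the lines 0 to 1 with MyoD and 0 to 1 with empty vector.

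Some changes turned sign, among them the called differences of Kirrel3 between the lines. With the mean of all probes Vcam1 changed by -0.037 with MyoD in shSix4 cells, and between the lines with empty vector Ncam1 read 0.090 and Vcam1 0.027. Normexp gave, between the lines with empty vector, -0.63 for Adam12, -0.70 for Cav3, 0.14 for Ncam1, 0.35 for Vcam1, 0.61 for Myof, -0.67 for Myod1 and -0.11 for Kirrel3, and -0.33 for Kirrel3 with MyoD. For the difference of the MyoD responses it gave 0.31 for Cdh15, -0.0082 for Cdh2 and -0.24 for Myof. Quantile normalization gave 0.044 for Myof between the lines with empty vector. The cause was not tested.

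Leaving out single arrays, the change with MyoD in shSix4 cells ranged from -0.11 to 0.23 for Vcam1 and from -0.14 to 0.82 for Dysf. Between the lines with MyoD it ranged from -0.024 to 0.33 for Cdh2, -0.62 to 0.12 for Dysf and -0.0085 to 0.24 for Myof. With empty vector it ranged from -0.087 to 0.12 for Cdh2, -0.19 to 0.030 for Ncam1, -0.36 to 0.032 for Vcam1, -0.50 to 0.32 for Dysf, -0.15 to 0.063 for Myof and -0.70 to 1.66 for Myod1. The difference of the responses ranged from -0.72 to 0.14 for Cdh15, -0.040 to 0.31 for Cdh2, -0.62 to 0.34 for Dysf and -0.73 to 0.014 for Six4. Of 950 values for the members under the alternatives, 888 kept direction and call, 17 lost the call, 5 gained one and 40 turned sign. Mymk and Cdh15 were called with MyoD in both lines under every alternative run on them.

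Signal over background limits Cav3 and Adam12, whose empty-vector levels were at or near it, so their fold changes there are bounds or rest on dim spots. The authors' table holds 2 members and gave no counts.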
